A study of Mus musculus with 8 samples.

Results

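Laptm4b, Npnt and Pdzk1ip1 are 3 of the 31053 genes counted in single cells of the mouse colonic lamina propria, the connective tissue layer beneath the gut epithelium. They were chosen by their measured UMI levels: all 3 were higher in CD4 T cells of wildtype (WT) mice after dextran sulfate sodium (DSS), a polymer that injures the colonic epithelium, than in untreated WT mice. The WT contrast is therefore given as a description with no test, and the tests of the 3 genes come from mutant mice and from other cells. The spread behind these tests is estimated over all 8 libraries, so the WT libraries still bear on each p. Comparisons of mutant with WT mice, and of Foxp3 classes over all libraries, also rest on the WT libraries that chose the genes. They are given for the 3 genes without a p. The question was which T cell subsets and which other barcodes carry the 3 transcripts, and whether the DSS rise lies within Foxp3-positive cells.

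Colons were digested with enzymes, leukocytes were recovered on a Percoll gradient and enriched for CD4 with a magnetic kit, and droplet single-cell libraries were made with 10x Genomics 3′ chemistry, which reads the 3′ end of each transcript. All mice were C57BL/6, 10 to 12 weeks old, and kept free of specific pathogens. The 4 groups, with 2 libraries each, were untreated WT mice, WT mice given DSS, untreated mutant mice and mutant mice given DSS. Treated mice drank 2% DSS for 7 days and plain water for 3 days, untreated mice drank plain water throughout, and all were taken on day 10. The mutant carries a substituted residue in RORγt, the transcription factor that directs T helper 17 cells. The sample titles call the line S203AKI, the design text RORgtS182A and the treatment text RORgtS182. These names are taken here as 1 line, which the labels do not state. Each title carries 1 animal number, and replicates 1 and 2 only name the libraries of a group. The study compared DSS with no treatment in WT mice, and mutant with WT mice in each condition.

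Foxp3 is the transcription factor that defines regulatory T cells, which restrain immune responses and are abundant in the colonic lamina propria. Regulatory T cells release the cytokine TGFβ from its latent form with the help of the surface protein encoded by Lrrc32 and of integrin αvβ8. LAPTM4B is a membrane protein of late endosomes and lysosomes, the compartments that degrade internalised material and sense nutrients. Nephronectin, encoded by Npnt, is a secreted extracellular matrix protein that binds integrin α8β1 and is best known from kidney development. PDZK1IP1, also called MAP17, is a small membrane protein of epithelial cells that binds PDZ-domain scaffold proteins.

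In the GRCm38 (mm10) annotation, Laptm4b (ENSMUSG00000022257) spans chr15:34238028-34284302 on the plus strand. Npnt (ENSMUSG00000040998) spans chr3:132881745-132950291 on the minus strand. Pdzk1ip1 (ENSMUSG00000028716) spans chr4:115088708-115093899 on the plus strand. All 3 are protein-coding genes. The 250 bases before the start of Npnt and of Pdzk1ip1 are shown because they are the proximal promoters of 2 genes that were chosen for the same direction after DSS. They come from RefSeq on GRCm38.p6, read 5′ to 3′ on the strand of the gene. The first is chr3:132950292-132950541, minus strand, and the second is chr4:115088458-115088707, plus strand.
Npnt: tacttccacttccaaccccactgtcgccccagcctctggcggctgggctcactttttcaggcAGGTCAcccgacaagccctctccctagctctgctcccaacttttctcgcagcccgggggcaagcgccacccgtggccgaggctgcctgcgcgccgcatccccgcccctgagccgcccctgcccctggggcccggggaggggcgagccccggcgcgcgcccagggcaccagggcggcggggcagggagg
Pdzk1ip1: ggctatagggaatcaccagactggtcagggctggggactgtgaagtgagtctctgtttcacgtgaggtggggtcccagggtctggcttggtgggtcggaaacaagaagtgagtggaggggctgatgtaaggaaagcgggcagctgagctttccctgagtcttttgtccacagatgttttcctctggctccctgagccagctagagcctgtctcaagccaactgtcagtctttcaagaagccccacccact
Capitals mark AGGTCA, the half-site that RORγt and other nuclear receptors recognise, which begins 188 bases before the start of Npnt. Both windows were searched on both strands for AGGTCA, for the AP-1 motif TGACTCA and for the forkhead motif TGTTTAC, and these letters do not overlap in them. AGGTCA in Npnt was the single match. Npnt has 2 promoter entries in this source, and only the window shown was searched. Of 32851 mouse promoter windows of the same length, 14.0% hold AGGTCA, 4.46% hold TGACTCA and 3.17% hold TGTTTAC. A match of letters is a description of the window.

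The 8 libraries held 10563 to 16133 barcodes and 34497509 to 46960005 unique molecular identifiers (UMIs), each UMI standing for 1 captured transcript. Of 100673 barcodes, 27420 were on the list of cells that the authors deposited, and every listed cell had at least 1 Cd4 UMI. Clustering of the listed cells, made here without the 3 genes, placed 20738 in 9 clusters of T cells, called CD4 T cells here. Of the 96721 barcodes that passed the limits on genes and mitochondrial UMIs, the other 75983 include T cells without a Cd4 UMI or off the list, as well as B, plasma, myeloid, stromal and epithelial cells, so the CD4-enriched libraries hold many other cells. One T cluster, led by the gland secretory genes Pbsn, Svs5 and Tgm4 with heat-shock genes, held 6.75% and 16.4% of the CD4 T cells of untreated WT mice. It held 29.5% and 15.9% in untreated mutants and between 1.01% and 2.27% in the DSS libraries. Across libraries, 1176 barcode sequences occurred in 2 or more, 88 of them among the listed cells. The gene-specific depth is low: all CD4 T cells together held 882 Laptm4b, 492 Npnt and 112 Pdzk1ip1 UMIs of 65402766. Levels are given as CPM, the UMIs of the gene per 1000000 UMIs of the class, and intervals cover counting error only.

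Among the T clusters, Laptm4b was highest in Treg-like cluster 3, whose leading genes included Foxp3, Il10 and Itgae. Pooled over the 8 libraries its level there was 62.6 CPM, against 13.5 CPM over all CD4 T cells. By library, cluster 3 held 32.8 and 15.1 CPM in untreated WT mice, 72.3 and 69.7 after DSS in WT, 26.4 and 29.7 in untreated mutants and 84.9 and 68.7 after DSS in mutants. Every DSS library of cluster 3 lay above every untreated one. The WT libraries among them chose the gene, and the share of all genes with this order was not counted by cluster. Cluster 3 alone carried 59.2% of the Laptm4b UMIs of CD4 T cells. The second Treg-like cluster, cluster 8, led by Il1rl1, Klrg1, Foxp3 and Itgb8, held 14.2 CPM and 6.24% of these UMIs. The proliferating cluster 7 held 14.1 CPM and 18.2% of these UMIs, and unnamed cluster 11 held 12.0 CPM. Th17-like cluster 1 held 3.91 CPM and follicular helper T-like cluster 2 held 1.19 CPM. In the Th17-like cluster the libraries ranged from 2.56 to 6.09 CPM, and the groups overlapped.

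Npnt was spread over more subsets. The pooled level was 18.5 CPM in Treg-like cluster 8 and 18.3 CPM in Treg-like cluster 3, but most UMIs of cluster 3 come from DSS libraries. In untreated libraries cluster 8 held 14.4 and 10.1 CPM in WT and 15.4 and 58.6 CPM in mutants, above the 2.05 and 0 and 2.64 and 2.47 CPM of cluster 3, from 2 to 10 against 0 to 1 UMIs. After DSS the 2 clusters overlapped. Pooled, proliferating cluster 7 held 11.2 CPM and Th17-like cluster 1 8.73 CPM, against 7.52 CPM in all CD4 T cells. In untreated mice the means were 0.421 CPM (WT) and 2.25 CPM (mutants) in cluster 7, below the 1.95 and 10.00 CPM of cluster 1, and after DSS 18.1 and 17.9 against 5.35 and 10.00 CPM. Of the Npnt UMIs of CD4 T cells, cluster 3 carried 31.1%, cluster 7 26.0%, cluster 1 17.7% and cluster 8 14.6%, pooled over libraries in which DSS mice supply most UMIs. In the 4 untreated libraries cluster 3 held 0 to 1 UMIs and cluster 7 held 0 to 2, while cluster 1 held 1 to 19 and cluster 8 held 2 to 10. In the Th17-like cluster the values per library were 2.97 and 0.931 CPM in untreated WT, 10.7 and 0 in WT after DSS, 8.02 and 12.0 in untreated mutants and 14.9 and 5.08 in mutants after DSS. These rest on 0 to 35 UMIs per library, and the untreated and DSS libraries overlapped in both genotypes. In the Th1-like cluster 0, Npnt was at 0 UMIs in 6 of the 8 libraries.

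Pdzk1ip1 was the rarest of the 3. Treg-like cluster 8 carried 27.7% of its UMIs in CD4 T cells at a pooled 7.98 CPM, but 15 of those 31 UMIs lay in WT DSS library 2. The values of cluster 8 were 4.80 and 0 CPM in untreated WT, 3.99 and 30.1 in WT after DSS, 5.12 and 5.86 in untreated mutants and 6.75 and 5.13 in mutants after DSS. WT DSS library 2 stood above all others there. Cluster 7 carried 20.5%, cluster 3 17.9% and follicular helper T-like cluster 2 16.1% of the Pdzk1ip1 UMIs, also pooled over libraries. In the 4 untreated libraries cluster 3 held 0 of them, and clusters 2 and 7 held 0 to 3 each. The plot of levels by cell class shows the same spread, with Laptm4b gathered in cluster 3 and Npnt and Pdzk1ip1 scattered over several subsets.

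**Figure D1:**
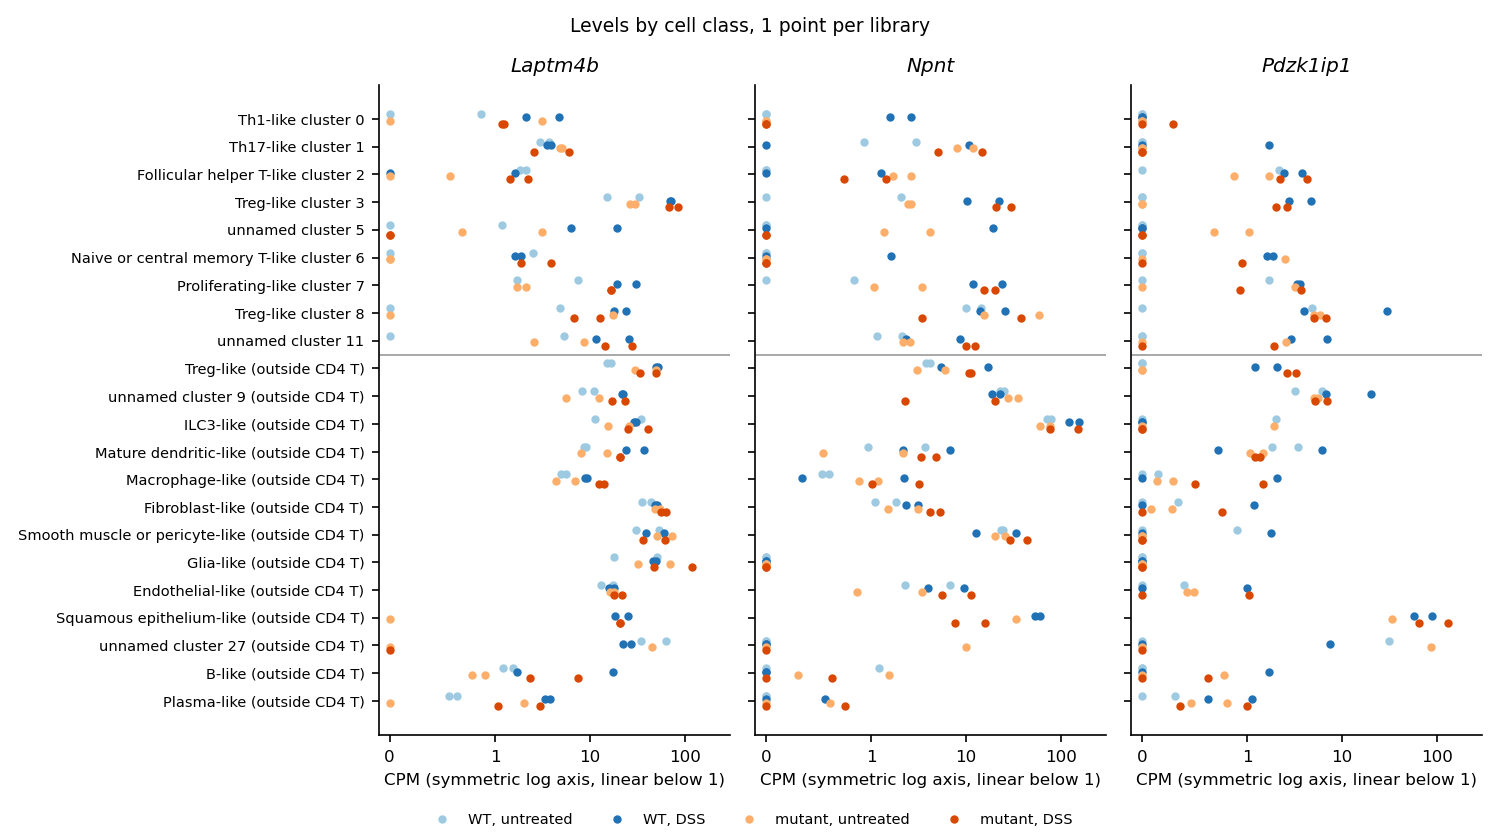
Level of each gene (CPM, symmetric log axis that is linear below 1) in the T clusters, above the line, and in classes of other barcodes, below it. Each point is 1 library, coloured by group. Laptm4b of cluster 3 lies between 15.1 and 84.9 CPM, Npnt of the ILC3-like class between 60.0 and 157 CPM.

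Cells were next split by Foxp3 itself, with 1 or more Foxp3 UMIs counted as Foxp3-positive. There were 3454 Foxp3-positive CD4 T cells, with a median of 3356.5 UMIs per cell against 2240 in Foxp3-negative cells. At these depths a cell that expresses Foxp3 can lack a Foxp3 UMI, so the negative class can hold regulatory T cells. In Treg-like cluster 3 of mutants, 83 of 146 and 71 of 162 cells had a Foxp3 UMI untreated, and 217 of 396 and 467 of 670 after DSS. The remaining cells of that cluster are in the negative class. Foxp3-positive cells carried 69.2% of the Laptm4b UMIs of CD4 T cells (95% Clopper-Pearson interval 66.0 to 72.2%), while they held 23.8% of all UMIs. For Npnt the share was 55.7% (51.2 to 60.1%) and for Pdzk1ip1 55.4% (45.7 to 64.8%). These pooled shares lean on the DSS libraries, which hold most of the UMIs. By library the Laptm4b share ran from 34.5 to 75.0% in untreated and from 59.8 to 83.8% in DSS libraries, and the Npnt share from 20% to 44.4% and from 38.6 to 82.5%. For Pdzk1ip1 it ran from 0 to 100% in untreated libraries, on 1 to 7 UMIs, and from 56.5 to 71.0% after DSS.

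Laptm4b was higher in Foxp3-positive than in Foxp3-negative cells in all 8 libraries, a pattern that 11.2% of 11268 genes showed. In Foxp3-positive cells it measured 25.1 and 8.96 CPM in untreated WT mice, 39.4 and 49.1 in WT after DSS, 13.2 and 17.3 in untreated mutants and 56.1 and 44.0 in mutants after DSS. In Foxp3-negative cells of the same libraries, in the same order, it measured 1.53 and 2.29, 11.6 and 10.8, 1.87 and 3.14 and 6.51 and 4.81 CPM. Fitted within libraries with edgeR, the log2 difference was 2.59 ± 0.19 (SE), a 6.02-fold higher level in Foxp3-positive cells. This fit also rests on the WT libraries that chose the genes, so no p is given for the 3. In those libraries Foxp3-positive cells were a mean of 10.1% of CD4 T cells untreated and 21.0% after DSS. Of all genes tested, 12.6% were called higher in Foxp3-positive cells at an adjusted p under 0.05.

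Npnt was also higher in Foxp3-positive cells in all 8 libraries. Its values there were 4.19 and 1.12 CPM in untreated WT, 14.2 and 20.2 in WT after DSS, 4.80 and 20.8 in untreated mutants and 23.5 and 23.6 in mutants after DSS. The matching Foxp3-negative values, in the same order, were 0.954 and 0.704, 6.19 and 6.77, 2.24 and 4.63 and 11.2 and 2.82 CPM. Mutant DSS library 1 had the smallest gap between the classes on a ratio scale among the DSS libraries. The edgeR log2 difference was 1.61 ± 0.35 (SE), 3.06-fold, also as a description. It was 0.11 when each cell was thinned to 1000 UMIs, with the Foxp3 classes set anew from the thinned counts. It was 1.19 when T cells with a marker UMI of other cell types, 61.8% of CD4 T cells, were left out. Without WT untreated library 1 it was 1.37. For Pdzk1ip1 the Foxp3-positive value was the higher one in 7 of the 8 libraries, and the difference was 1.13 ± 0.71 (SE). Over 13 alternatives it ran from -0.16 to 2.28, and 2 of them turned its direction.

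Counted by cells, a Laptm4b UMI was present in a mean of 5.31% of Foxp3-positive cells of untreated WT mice and 12.4% after DSS in WT. The means were 5.86% and 14.1% in mutants. After thinning to 1000 UMIs per cell they were 2.38, 4.05, 2.19 and 5.001%. In Foxp3-negative cells, which are shallower, the unthinned means were 0.5495 and 2.24% in WT and 0.760 and 1.35% in mutants. B-like barcodes outside the CD4 T cells, with library medians of 1379 to 1911 UMIs, gave 0.269 and 1.05% in WT and 0.198 and 0.728% in mutants. Median depth ran from 2788 to 4176 UMIs over libraries in Foxp3-positive cells and from 1798 to 2596 in Foxp3-negative cells. In untreated mice the Foxp3-negative and B-like shares were both under 1%, and the Foxp3-positive share stood above both in each group. For Npnt the Foxp3-positive means were 1.15 and 4.43% in WT and 3.48 and 7.24% in mutants, untreated first. Thinned, they were 0.476, 1.23, 1.03 and 2.23%. With the classes as first set, the thinned Foxp3-negative means were 0.028, 0.413, 0.235 and 0.483% in the same order. In mutant untreated library 1 the thinned values went the other way, 0 in Foxp3-positive against 0.0639% in Foxp3-negative cells. A UMI of both Laptm4b and Npnt occurred in 68 CD4 T cells, of 631 with Laptm4b and 345 with Npnt, and 53 of the 68 were Foxp3-positive. The product of the shares gives 10.5 cells over all CD4 T cells and 20.9 within Foxp3-positive cells, which is a description, since deep cells show more of every gene.

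In all CD4 T cells together, Laptm4b was 5.16 and 3.19 CPM in untreated WT mice and 20.02 and 21.8 CPM in WT mice after DSS, from 32 and 21 against 209 and 158 UMIs. Npnt was 1.45 and 0.760 against 8.62 and 10.6 CPM. Pdzk1ip1 was 0.161 and 0.608 against 2.68 and 4.28 CPM. The WT groups do not overlap for any of the 3, as their choice requires, and 32.8% of 11061 genes had both WT DSS libraries above both untreated ones. The fitted WT differences, as a description, were 2.26 for Laptm4b, 3.04 for Npnt and 3.02 for Pdzk1ip1 on the log2 scale.

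The mutant libraries were not used in that choice. Laptm4b was 3.40 and 4.38 CPM in untreated mutants and 17.9 and 18.9 CPM in mutants after DSS. The groups did not overlap, and the edgeR log2 change was 2.16 ± 0.23 (SE, adjusted p = 0.00769), 4.46-fold. Npnt was 2.59 and 6.04 against 14.1 and 10.3 CPM, again with no overlap, and its difference of 1.38 ± 0.36 (SE, adjusted p = 0.0528) missed the 0.05 threshold. Pdzk1ip1 was 0.970 and 1.06 against 1.67 and 1.54 CPM. Its groups did not overlap, and the difference of 0.56 ± 0.52 (SE, adjusted p = 0.517) did not pass the test. So 1 of the 3 genes was called higher, where 2.28% of 11061 genes were. No overlap in this direction held for all 3, and for 35.7% of all genes.

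Foxp3 itself moved beside them in these sums, with 48.5 and 34.4 CPM in untreated and 112 and 149 CPM in DSS-treated mutants, a log2 change of 1.58 ± 0.18 (SE, adjusted p = 0.0104). In such sums, more cells of a type and more transcript per cell cannot be told apart. The Laptm4b call was lost without mutant untreated library 1 (1.97, adjusted p = 0.0852) and held in 13 of 14 alternatives. Without the T cluster of gland and heat-shock genes, which is largest in that same library, Laptm4b kept its call (2.01, adjusted p = 0.0114) and Npnt differed by 1.29 (adjusted p = 0.0596).

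**Figure D2:**
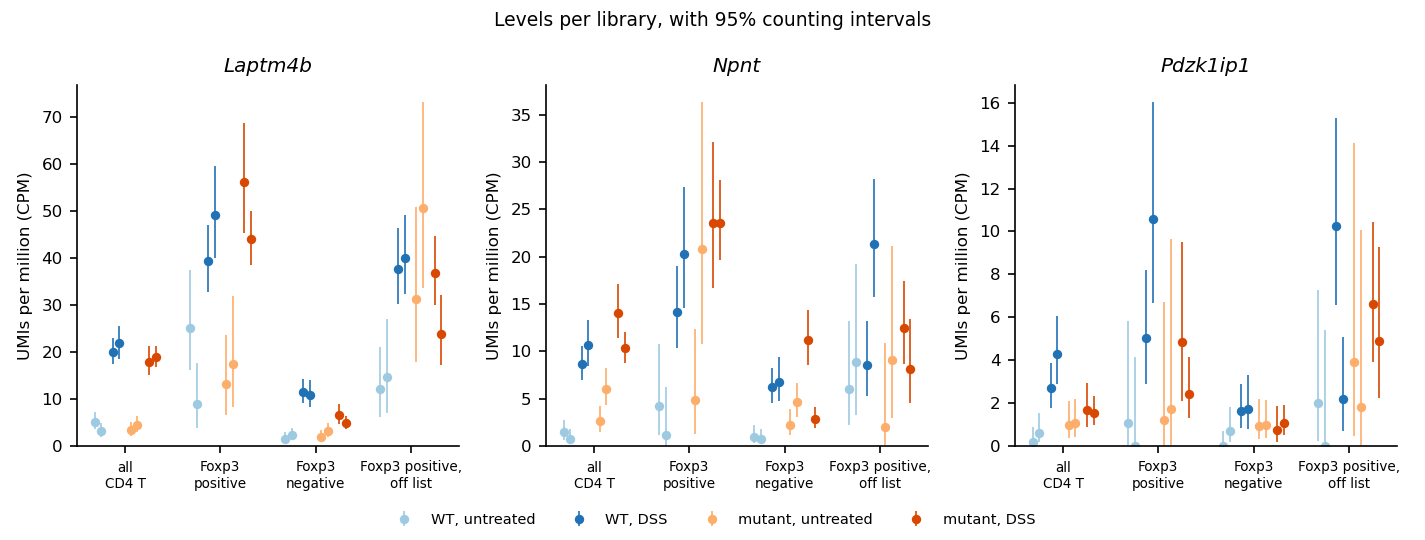
Level of each gene (CPM) in all listed CD4 T cells, in Foxp3-positive and Foxp3-negative cells among them, and in Foxp3-positive T barcodes off the deposited list. Points are libraries, coloured by group, and lines are exact 95% Poisson intervals, which cover counting error only. Laptm4b in Foxp3-positive cells is 8.96 to 25.1 CPM in untreated and 39.4 to 56.1 CPM in DSS libraries, while the off-list mutant libraries overlap.

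Within Foxp3-positive cells of mutants, Laptm4b was higher after DSS: 13.2 and 17.3 CPM in untreated libraries, from 11 and 10 UMIs, and 56.1 and 44.0 CPM after DSS, from 93 and 237 UMIs. The groups did not overlap, and edgeR gave a log2 change of 1.66 ± 0.36 (SE, adjusted p = 0.0295), 3.16-fold. A normal 95% interval from the SE ran from 0.96 to 2.36. In Foxp3-positive cells 0.726% of 8401 genes were called higher, and 28.8% had groups without overlap in this direction. Foxp3 was 360.4 and 395 CPM untreated and 485 and 412 CPM after DSS in these cells, and its difference of 0.20 ± 0.15 (SE, adjusted p = 0.491) did not pass. The Laptm4b call was lost without mutant untreated library 1 (1.46, adjusted p = 0.215) or 2 (1.83, adjusted p = 0.151). The call was also lost without cells holding marker UMIs of other types (1.40, adjusted p = 0.186), a limit that left out 61.8% of all CD4 T cells. With 2 or more Foxp3 UMIs required it was lost as well (1.58, adjusted p = 0.0950). It held when the Treg-like clusters stood in for Foxp3-positive cells (1.32, adjusted p = 0.0289) and without the cluster of gland and heat-shock genes (1.65, adjusted p = 0.0347).

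The other 2 genes are less clear within Foxp3-positive cells. Npnt rested on 4 and 12 UMIs in untreated and 39 and 127 UMIs in DSS-treated mutants. The levels did not overlap, but untreated library 2 came close to both DSS libraries, and the log2 difference of 0.98 ± 0.46 (SE, adjusted p = 0.262) did not pass the test. It was 0.15 (adjusted p = 0.914) without mutant untreated library 1 and 2.22 (adjusted p = 0.156) without mutant untreated library 2, and was called in none of its alternatives with an adjusted p. Pdzk1ip1 had 1 and 1 UMIs untreated and 8 and 13 after DSS, or 1.201 and 1.73 against 4.82 and 2.41 CPM, and fell below the filter on low counts. In WT Foxp3-positive cells, as a description, Pdzk1ip1 was 1.05 and 0 CPM untreated and 5.05 and 10.6 CPM after DSS. For the 0 of WT untreated library 2, a level of 3 counts would be 3.36 CPM, and the exact 95% interval plotted by library ends at 4.13 CPM.

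In Foxp3-negative cells of mutants neither tested gene was called as fitted. Laptm4b was 1.87 and 3.14 CPM untreated and 6.51 and 4.81 CPM after DSS, without overlap, and its difference of 1.07 ± 0.34 (SE, adjusted p = 0.0992) did not pass. It was called with no filter on low counts (1.11, adjusted p = 0.0324) and in the T clusters that are not Treg-like (1.70, adjusted p = 0.0291). Those clusters also hold Foxp3-positive cells. In cluster 7 of mutants these were 18 of 118 and 6 of 84 cells untreated, and 55 of 182 and 131 of 309 after DSS. Npnt was 2.24 and 4.63 against 11.2 and 2.82 CPM, so the groups overlapped, and its difference was 0.86 ± 0.58 (SE, adjusted p = 0.385). The direction turned in 2 of 14 alternatives, to as low as -0.36. Th17-like cluster 1, which carries Npnt, was 37.9% of CD4 T cells in mutant DSS library 1 and 8.93% in library 2, and its part in these values was not tested. Pdzk1ip1 was 0.934 and 0.992 against 0.724 and 1.05 CPM and was below the filter. Of all 10662 genes, 1.09% were called higher. Of the 3, 1 had no overlap, where 32.2% of genes had none in this direction.

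Whether DSS acted more strongly in one Foxp3 class was asked in the mutant libraries. The effect in Foxp3-positive cells minus that in Foxp3-negative cells was 0.59 ± 0.48 (SE, adjusted p = 0.706) for Laptm4b, with a 95% interval from -0.35 to 1.53. For Npnt it was 0.30 ± 0.57 (SE, adjusted p = 0.908), from -0.82 to 1.43, and for Pdzk1ip1 1.201 ± 1.35 (SE, adjusted p = 0.806), from -1.45 to 3.85. None of the 3 passed the test, and 1.05% of 11268 genes did. With the Treg-like clusters set against the other T clusters the direction turned, to -0.38 for Laptm4b (adjusted p = 0.898) and -0.24 for Npnt (adjusted p = 0.951). The other T clusters also hold Foxp3-positive cells, so this is not the same split. Npnt was -0.69 without mutant DSS library 2. A different proportional rise between the classes was thus not detectable in mutants for any of the 3. The intervals still hold differences of more than 1 log2 unit. In WT, as a description, mean Laptm4b went from 17.05 to 44.3 CPM in Foxp3-positive and from 1.91 to 11.2 CPM in Foxp3-negative cells. Npnt went from 2.655 to 17.2 and from 0.829 to 6.48 CPM, so both rose by the larger proportion in Foxp3-negative cells. Pdzk1ip1, from 0.524 to 7.82 and from 0.352 to 1.70 CPM, went the other way.

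Foxp3-positive T barcodes that were off the deposited list gave another reading of the same mice. There were 4465, with a median of 2071 UMIs. Laptm4b was present in them at a pooled 32.7 CPM, Npnt at 11.4 and Pdzk1ip1 at 5.11 CPM. In mutants Laptm4b was 31.3 and 50.7 CPM untreated and 36.7 and 23.8 CPM after DSS, from 16 and 28 against 100 and 44 UMIs. The groups overlapped, the untreated library 2 was the highest, and the log2 difference was -0.47 ± 0.29 (SE, adjusted p = 0.434). Npnt differed by 0.85 ± 0.71 (SE, adjusted p = 0.574). Pdzk1ip1 was below the filter, and neither of the tested genes was called, where 0.805% of 8574 genes were called higher.

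The rise of Laptm4b in Foxp3-positive cells of mutants was therefore seen in listed cells and not in off-list ones, and the difference between these 2 sets was not tested. With both sets summed it was 0.59 (adjusted p = 0.170). In WT mice the off-list cells went the way of the listed ones, as a description: 12.1 and 14.7 CPM untreated and 37.7 and 40.0 CPM after DSS. The listed cells all carry a Cd4 UMI, and how the authors chose among cells with one is not given in the sources used here. The part of this choice in the result was not tested.

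**Figure D3:**
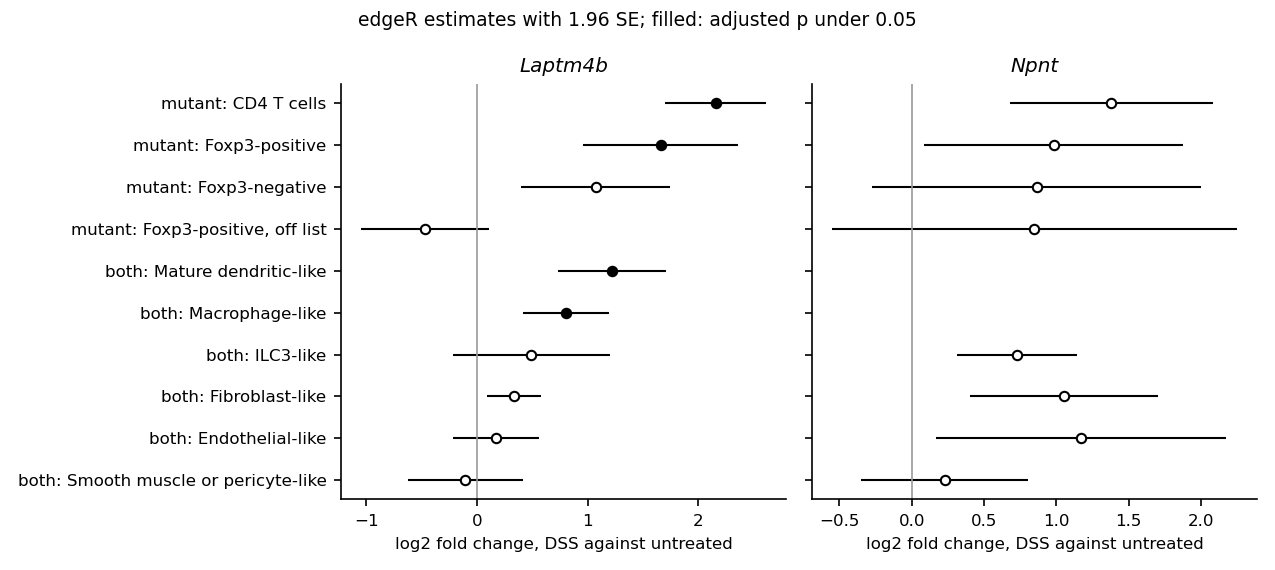
Log2 change after DSS from edgeR for Laptm4b and Npnt, in mutant CD4 T cell sets and, averaged over both genotypes, in classes of other barcodes. Bars are normal 95% intervals from the SE, and filled points have an adjusted p under 0.05. Laptm4b is filled in CD4 T cells (2.16), in Foxp3-positive cells (1.66), in mature dendritic-like and in macrophage-like barcodes, and Npnt is filled in none of the sets shown. The mature dendritic-like point is a description, since T cell RNA of the WT mice can enter it.

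The rise over all CD4 T cells was then divided into parts, using group means of the level in each class and of the share of UMIs that each class held. In mutants the Foxp3-positive cells held 11.1% of CD4 T cell UMIs untreated and 29.6% after DSS, and in WT 14.5% and 29.5%. By number of cells, Foxp3-positive cells were 10.4% and 6.85% of CD4 T cells in the untreated mutant libraries and 16.6% and 25.7% in the DSS ones. In WT they were 10.2% and 10.0% untreated and 21.5% and 20.5% after DSS. Mutant Laptm4b went from a mean of 15.3 to 50.04 CPM in Foxp3-positive cells and from 2.51 to 5.66 CPM in Foxp3-negative cells. Of the Laptm4b rise in mutants, Foxp3-positive cells carried 88.2%: 47.5% through the higher level within them and 40.6% through their larger share. The level part includes the make-up of these cells, since proliferating-like cluster 7 was a mean of 6.92% of them untreated and 12.7% after DSS, Treg-like cluster 8 was 14.8% and 22.4%, and the naive or central memory T-like cluster 6.52% and 2.15%. The part of this make-up was not tested. Leaving out each mutant library in turn gave 80.2 to 94.3%. With the T clusters as classes, the 2 Treg-like clusters carried 73.5%.

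For Npnt in mutants, Foxp3-positive cells carried 74.6% of the rise, 29.4% by level and 45.2% by share. The level part of Foxp3-negative cells was larger, at 38.4%, and their share part was -13%. The Foxp3-positive total ranged from 41.8 to 121.4% when single libraries were left out, a range too wide to place the rise. For Pdzk1ip1 in mutants the total rise was under 1 CPM and its Foxp3-positive part came to 134.6%, with the level in Foxp3-negative cells at 0.963 untreated and 0.885 CPM after DSS. The WT parts of Foxp3-positive cells, as a description of the contrast that chose the genes, were 62.9% for Laptm4b, 54.9% for Npnt and 71.4% for Pdzk1ip1. By level alone, WT Foxp3-negative cells carried 43.0% of the Laptm4b rise and 51.5% of the Npnt rise. Foxp3-positive cells carried 35.5% and 37.4% by level. For Pdzk1ip1 the level parts were 33.5% in Foxp3-negative and 51.35% in Foxp3-positive cells.

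**Figure D4:**
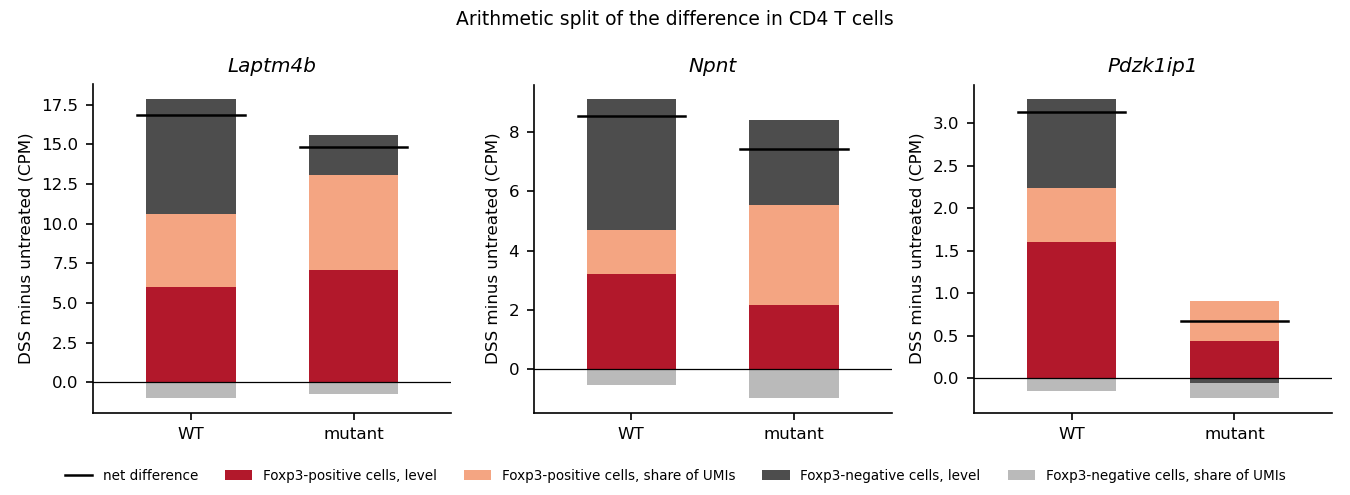
Parts of the DSS rise (CPM) of each gene over all CD4 T cells in WT and mutant mice, from group means of 2 libraries. Stacked bars give the level and share parts of Foxp3-positive and Foxp3-negative cells, and the line marks their sum. In mutants the Foxp3-positive level part of Laptm4b is 47.5% of the rise and the Foxp3-positive share part 40.6%.

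Within the clusters the picture was uneven. The share of all genes whose groups do not overlap was not counted by cluster. In all mutant CD4 T cells 35.7% of genes had both DSS libraries above both untreated ones. In Treg-like cluster 8, mutant Laptm4b was 0 and 17.6 CPM untreated and 6.75 and 12.8 CPM after DSS, so the groups overlapped. In proliferating cluster 7 it was 2.13 and 1.71 against 16.6 and 16.8 CPM in mutants, and 7.57 and 1.70 against 19.5 and 30.6 CPM in WT, without overlap. Foxp3 in cluster 7 was also apart, at 31.9 and 15.4 against 107 and 126 CPM in mutants and 49.6 and 37.4 against 112 and 152 CPM in WT. In mutants 18 of 118 and 6 of 84 cells of cluster 7 were Foxp3-positive untreated, and 55 of 182 and 131 of 309 after DSS. Unnamed cluster 11 gave 8.79 and 2.55 against 27.9 and 14.3 CPM in mutants, also apart, and Foxp3 there was 76.9 and 86.8 against 163 and 162 CPM. The part of Foxp3-positive cells in the Laptm4b values of clusters 7 and 11 was not tested. Npnt in cluster 3 was 2.64 and 2.47 CPM in untreated and 21.0 and 30.3 CPM in DSS-treated mutants, and in cluster 7 1.06 and 3.43 against 20.3 and 15.6 CPM. Both pairs stood apart. In cluster 8, by contrast, Npnt was 15.4 and 58.6 CPM in untreated mutants and 38.2 and 3.42 CPM after DSS, with the highest value in an untreated library. Cluster 3 was 7.90% of CD4 T cells in untreated and 15.99% in DSS-treated mutants on average, and 10.4% and 17.8% in WT.

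Markers of some other cell types were higher with DSS in the CD4 T cell sums, and those of others were lower or overlapped. Summed markers of squamous epithelium (Krt5, Krt14, Krt15, Krt6a, Krt13 and Trp63) were 0 to 0.485 CPM in untreated and 3.61 to 8.07 CPM in DSS CD4 T cells of mutants, and 0 against 1.05 to 7.87 CPM in WT. All 6 were at 0 in both untreated WT libraries and in 1 of the untreated mutant libraries, and in the DSS libraries between 0 and 3 were at 0. The 6 neutrophil markers were 1.13 to 1.81 against 3.61 to 11.8 CPM in mutants and 0.456 to 1.45 against 3.73 to 6.49 CPM in WT. In Foxp3-positive cells all 6 neutrophil markers were at 0 in the 4 untreated libraries and summed to 2.97 to 7.71 CPM after DSS. These untreated sums are small, and 3 counts in them would be 3.14 to 5.20 CPM. The 7 macrophage markers were all found in CD4 T cell sums, at 39.9 to 71.5 CPM in untreated and 89.6 to 119.7 CPM in DSS-treated mutants, and they overlapped in WT, at 57.9 to 77.8 and 55.1 to 215 CPM. Mature dendritic markers were 130.3 to 141 against 148 to 239.7 CPM in mutants and 117 to 132 against 172 to 204 CPM in WT. Monocyte markers, at 233 to 389 against 401 to 468 CPM, and endothelial markers, at 41.1 to 48.8 against 50.2 to 69.3 CPM, were higher after DSS in mutants and overlapped in WT. Smooth muscle or pericyte markers were lower after DSS in WT, at 16.3 to 27.1 against 6.03 to 13.0 CPM, and overlapped in mutants, at 13.4 to 58.7 against 6.36 to 13.5 CPM. Columnar epithelium markers were 15.7 to 33.0 against 10.6 to 11.4 CPM in mutants and overlapped in WT, and fibroblast markers overlapped in both genotypes. In WT, B cell markers (3.07 to 5.63 against 5.94 to 11.5 CPM), CD8 T cell markers (333 to 344 against 344 to 349 CPM) and ILC2 markers (389 to 398 against 658 to 688 CPM) were also higher after DSS, and in mutants so were glia markers (0.151 to 0.323 against 0.602 to 0.835 CPM), each overlapping in the other genotype. Some of these markers are T cell transcripts too, so the sums are not those of other cells alone. Gata3, Il1rl1, Klrg1 and Areg of the ILC2 markers are also on the regulatory T cell list used here. Plac8, a monocyte marker, was a leading gene of Th1-like cluster 0, and Gzmb, a CD8 T cell marker, of Treg-like cluster 3. Ccr7, a mature dendritic marker, is also a naive T cell marker. The part of these sums in the results on the 3 genes was not tested.

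Mutant and WT mice were compared in each condition, with the same WT libraries that chose the genes, so the values of the 3 genes here are a description and carry no p. Laptm4b in CD4 T cells differed by -0.09 ± 0.28 untreated and by -0.19 ± 0.19 after DSS on the log2 scale in edgeR (± SE). Npnt differed between untreated mutants and WT by 1.98 ± 0.51, and after DSS by 0.31 ± 0.32. Untreated mutant libraries held 2.59 and 6.04 CPM and untreated WT libraries 1.45 and 0.760 CPM, without overlap. How many of all genes show this was not counted. Pdzk1ip1 differed by 1.34 ± 0.71 untreated and -1.11 ± 0.42 after DSS. The DSS effect in mutants minus that in WT was -0.10 ± 0.34 for Laptm4b. For Npnt it was -1.66 ± 0.61 and for Pdzk1ip1 -2.46 ± 0.82. The choice of the genes needed low untreated and high DSS values in WT, so it bears on each of these differences. Of all 11061 genes edgeR called 0 (0%) in untreated mice, where 580 had an unadjusted p under 0.05 and DESeq2 called 14. After DSS edgeR called 0 (0%), with 193 at an unadjusted p under 0.05 and 0 by DESeq2. For the difference of effects edgeR called 0 (0%), with 434 at an unadjusted p under 0.05 and 1 by DESeq2. Within Foxp3-positive cells Laptm4b differed between genotypes by -0.21 ± 0.46 untreated and 0.15 ± 0.23 after DSS.

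Outside the CD4 T cells, each gene had other carriers. Laptm4b was present at a pooled 54.0 CPM in glia-like, 50.02 in fibroblast-like and 49.7 in smooth muscle or pericyte-like barcodes. These 3 classes do not differ beyond their spread over libraries, which for glia runs from 18.2 to 121 CPM. An unnamed cluster of 158 barcodes, led by Rgs5, Vip and Ano1, held 48.1 CPM. Treg-like barcodes outside the CD4 T cells held 41.2 CPM, gland-gene cluster 27 41.1 CPM and the ILC3-like class 26.1 CPM. Mature dendritic-like barcodes held 17.5 CPM, endothelial-like 17.3 and macrophage-like 7.83 CPM. The pooled stromal levels lie inside the range of Treg-like cluster 3 over libraries, 15.1 to 84.9 CPM.

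Npnt was highest in ILC3-like barcodes, the innate lymphoid cells that share RORγt with T helper 17 cells, at a pooled 96.5 CPM from 388 UMIs. Its libraries held 71.2 and 78.8 CPM in untreated WT, 123 and 157 in WT after DSS, 60.0 and 77.2 in untreated mutants and 152 and 77.2 in mutants after DSS. Every one of these libraries was above the 30.1 CPM pooled of the next class, squamous epithelium-like, whose own DSS libraries ran from 7.73 to 61.2 CPM. Smooth muscle or pericyte-like barcodes had 25.8 CPM. An unnamed cluster outside the CD4 T cells, led by Il1rl1, Foxp3 and Klrg1, had 20.04 CPM. Fibroblast-like barcodes held 2.62 CPM, and no UMI was found in glia-like ones.

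Pdzk1ip1 was highest in barcodes with epithelial markers. Squamous epithelium-like barcodes, 409 in all, held 528 UMIs at a pooled 85.0 CPM. They were found in the 4 DSS libraries, with 36 and 174 barcodes in WT and 117 and 80 in mutants, and otherwise only as 2 barcodes of 1 untreated mutant library. The level in the DSS libraries was 88.2 and 57.7 CPM in WT and 65.4 and 130.3 CPM in mutants. Cluster 27, a group of barcodes led by gland genes, held 80 UMIs, of which 78 lay in mutant untreated library 1. The unnamed cluster led by Il1rl1, Foxp3 and Klrg1 held 8.87 CPM, and 20.4 and 6.76 CPM in the WT DSS libraries. The squamous barcodes and the squamous markers in the CD4 T cell sums were both higher with DSS, and their part in the Pdzk1ip1 values of CD4 T cells was not tested.

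DSS was tested in classes of barcodes outside the CD4 T cells, averaged over both genotypes. The WT mice enter through these barcodes, some of which also hold T cell UMIs. Listed cells outside the T clusters are among these barcodes. The 13 named classes with at least 20 barcodes in every library were tested. Laptm4b passed the filter on low counts in 9 of them and was called higher in 4, and Pdzk1ip1 passed it in none. Of these 4, the Treg-like and proliferating-like classes carry the same names as T clusters of the listed cells and come partly from the WT mice that chose the genes, so their values are given as a description without a p. In mature dendritic-like barcodes, which carry antigen to lymph nodes, it was 9.22 and 8.75 CPM in untreated WT, 37.2 and 23.8 in WT after DSS, 15.3 and 8.13 in untreated mutants and 21.0 and 20.6 in mutants after DSS. All DSS libraries lay above all untreated ones, and the edgeR log2 change was 1.22 ± 0.25 (SE), where 7.36% of 8707 genes were called higher. In the WT DSS libraries only 87 of 252 and 146 of 258 barcodes of this class held no T cell or Foxp3 UMI. T cell RNA of the WT mice that chose the gene can thus enter here, so this value is a description without a p. How many of all genes have their DSS libraries above the untreated ones was not counted in any of the 13 classes. Without barcodes holding a T cell or Foxp3 UMI, an alternative added after seeing the data, the difference was 0.08 (adjusted p = 0.939) and the call ended. Foxp3 in this class, at 13.5 and 11.2 CPM untreated and 85.1 and 61.4 CPM after DSS in WT and 17.5 and 16.3 against 47.4 and 84.9 CPM in mutants, moved with it.

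In macrophage-like barcodes Laptm4b was 4.94 and 5.55 CPM in untreated WT, 9.25 and 8.99 in WT after DSS, 7.00 and 4.44 in untreated mutants and 12.6 and 14.2 in mutants after DSS. No untreated library reached a DSS library. The change was 0.80 ± 0.20 (SE, adjusted p = 0.0147), with 11.6% of 10389 genes called higher. It kept its call, at 0.83 (adjusted p = 0.0383), without barcodes holding a T cell or Foxp3 UMI. DESeq2 gave 0.82 (adjusted p = 0.0540).

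Proliferating-like barcodes outside the CD4 T cells showed Laptm4b at 2.27 and 2.52 CPM untreated and 22.6 and 17.9 CPM after DSS in WT. In mutants it was 0 and 2.88 against 21.8 and 11.2 CPM. Both genotypes were apart, with a log2 difference of 3.32 ± 0.58 (SE), and 3.06% of 7326 genes were called higher. Foxp3 also rose in that class, by 2.03 (adjusted p = 1.11e-05 in edgeR). In the Treg-like class outside the CD4 T cells Laptm4b differed by 0.83 ± 0.20 (SE), with 5.75% of 7786 genes called higher. In that class the call held in 6 of 10 alternatives. There the WT libraries went from 16.9 and 15.1 to 50.3 and 52.0 CPM, while the mutant libraries overlapped at 29.9 and 50.2 untreated and 49.5 and 33.98 CPM after DSS.

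Npnt passed the filter in 5 of the 13 classes and was called in none as fitted. In the Treg-like class, a description here, 2 of the alternatives called Npnt. It was called without 1 library in fibroblast-like (without mutant DSS library 1, adjusted p = 0.0398) and ILC3-like barcodes (without mutant DSS library 2, adjusted p = 0.0178), and with no filter on low counts in the same 2 classes. In ILC3-like barcodes the difference was 0.73 ± 0.21 (SE, adjusted p = 0.0825), with 1% of 6181 genes called higher, and in mutants the DSS library 2 equalled an untreated library. In fibroblast-like barcodes, the matrix-producing cells of the lamina propria, Npnt was 1.81 and 1.11 CPM untreated and 3.12 and 2.35 CPM after DSS in WT, and 1.495 and 3.16 against 4.23 and 5.33 CPM in mutants. Its difference of 1.05 ± 0.33 (SE, adjusted p = 0.0531) missed the threshold, and 10.8% of 13596 genes were called higher. Laptm4b in fibroblast-like barcodes differed by 0.33 ± 0.12 (SE, adjusted p = 0.0855) and was called only without mutant DSS library 1 (adjusted p = 0.0401) among its alternatives.

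The genes that surround the 3 in their known pathways were taken as 4 lists. Of 15 relatives and partners of LAPTM4B, all tested, 2 were higher (252 of all 11061 genes were) after DSS in mutant CD4 T cells: Itgb8, the β8 chain of the TGFβ-activating integrin, by 1.05 ± 0.17 (SE, adjusted p = 0.0200), and Lamp2, a lysosomal membrane protein, by 0.66 ± 0.15 (SE, adjusted p = 0.0408). The median of the list was 0.15 against 0.01 over all genes. Within Foxp3-positive cells none of the 14 tested was called, and Itgb8 differed by 0.27 ± 0.26 (SE, adjusted p = 0.619). Between Foxp3 classes, 3 of the 15 were higher in Foxp3-positive cells (Lrrc32 by 1.73, Itgb8 by 1.92 and Itgav by 1.05) and 3 were lower (Lamp1, Slc3a2 and Nedd4). Of all 11268 genes, 1415 were higher and 1928 lower. Lrrc32 had a smaller DSS effect in Foxp3-positive than in Foxp3-negative cells, with a difference of -1.19 ± 0.27 (SE, adjusted p = 0.0151), which was the 1 call in that list, where 64 of 11268 genes were higher and 54 lower.

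Of 12 nephronectin receptors and relatives, 6 were tested in mutant CD4 T cells. Itgb3, the β3 integrin chain, was higher after DSS in all CD4 T cells by 1.55 ± 0.24 (SE, adjusted p = 0.0166), in Foxp3-positive cells by 1.37 ± 0.27 (SE, adjusted p = 0.0179) and in Foxp3-negative cells by 1.63 ± 0.28 (SE, adjusted p = 0.0405). None of the others was called in these 3 comparisons, where 252 of 11061, 61 of 8401 and 116 of 10662 genes were called higher. The median in CD4 T cells was 0.17 against 0.01. Between classes, Itgav, Itgb5, Itga4 and Itgb7 were higher and Itgb1 lower in Foxp3-positive cells, as were 1415 and 1928 of 11268 genes. Of 9 partners and neighbours of PDZK1IP1, 3 could be tested and none was called after DSS, with a median of -0.14. Slc9a3r1, a PDZ scaffold, was higher in Foxp3-positive cells by 0.27, and Smad4, which carries TGFβ signals to the nucleus, was lower (-0.21).

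Of 22 regulatory T cell genes, 20 were higher in Foxp3-positive cells, where 1415 of 11268 genes were, with a median of 0.90 against -0.03 over all genes, and the list includes Foxp3, which defined the class. After DSS, 5 were higher in mutant CD4 T cells (Foxp3, Il2ra, Tnfrsf9, Itgb8 and Itgae) and Tnfrsf4 was lower, where 252 of 11061 genes were higher and 294 lower. Within Foxp3-positive cells, 3 of 21 were higher, as were 61 of all 8401 genes: Itgae, the αE integrin chain that binds epithelial E-cadherin, by 1.05 ± 0.24 (SE, adjusted p = 0.0375), Tnfrsf9 by 0.82 ± 0.16 (SE, adjusted p = 0.0162) and Il2ra by 0.74 ± 0.15 (SE, adjusted p = 0.0231). Tnfrsf4 was lower, with a log2 change of -0.66 ± 0.15 (SE, adjusted p = 0.0399). The median of the 21 was 0.05 against 0.01 over all genes. Foxp3-negative cells gave calls for 3 of these genes as well, Tnfrsf9 and Itgae higher (both by 0.98) and Tnfrsf4 lower (-0.88), where 116 of 10662 genes were higher and 130 lower. For the difference of the DSS effect between Foxp3 classes, 3 of the 22 were called, Il10 (-0.60), Lrrc32 and Il1rl1 (-1.15), each with the smaller effect in Foxp3-positive cells. Of all 11268 genes, 64 were called higher and 54 lower there.

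Likeness to other genes was measured as Pearson's r of log2(CPM + 1) over 16 sums, the Foxp3-positive and Foxp3-negative cells of each library, across 8529 genes with a mean of at least 5 CPM. The 16 sums share libraries and depth, so r is a description. For Laptm4b the 5 most alike were Itgae (r = 0.973), Tnfrsf13b (0.960), Tnfrsf9 (0.956), Lats2 (0.955) and Hopx (0.951). For Npnt they were Mdfic (0.935), Snx14 (0.925), Vasp (0.918), Lrrc58 (0.915) and Dnajc24 (0.911). For Pdzk1ip1, with 112 UMIs in all, they were Atxn3 (0.922), Stom (0.910), Slc43a2 (0.906), Cnn2 (0.906) and Zc3h12d (0.905).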

How the data were processed

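Each of the 8 libraries came as a deposited table of UMI counts per gene and barcode, in whole numbers and not normalized. Per the submitters' processing notes, the tools were Cell Ranger 3.1.0 and Seurat 4.0.1 with build mm10. The authors also deposited a list of kept cells without cell types. In 7 tables the rows carry numbers, and the order came from the deposited gene list, checked against the 1 table with gene identifiers. Listed cells were clustered here (scanpy 1.11.5, leidenalg 0.10.2, 2000 variable genes, 30 components, 15 neighbours, resolution 1). All other barcodes with at least 400 genes and under 20% mitochondrial UMIs were clustered separately, with the listed cells outside the T clusters among them. The 3 genes, cytokine and effector genes, and antigen receptor genes were left out of the variable genes. Clusters were called "-like" from marker lists. Clusters may thus differ from those of the authors. No doublet caller was run.

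UMI counts were summed per library and class and tested with edgeR 4.0.16 (quasi-likelihood, TMM, filterByExpr, Benjamini-Hochberg over all genes tested, threshold 0.05) on all 8 libraries. The within-library comparison kept the library as a block. Alternatives were DESeq2 1.42.0, no filter, fewer libraries, thinning to 1000 UMIs (597 T cells left out), stricter Foxp3 and marker limits, and others added after the data were seen. Thinned fits set the Foxp3 classes from thinned counts, and the marker limit left out 61.8% of CD4 T cells. Fits were tested on simulated data. The 3 genes, the gene lists and the markers were chosen with earlier results of these data known. Named genes are the 3, up to 4 called members of each list in list order, and the 5 genes most like each of the 3. Other called list members were named after their values were seen. The series' design text calls the 2 libraries of a group independent biological replicates. Depth was 34497509 to 46960005 UMIs per library. A floor of 3 counts was used for a count of 0, and intervals are at 95%. Those of log2 differences use the SE and normal quantiles, so they can be too narrow with 2 libraries a group. No UTR, protein or Laptm4b promoter sequence was used.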

Additional observations from a re-analysis of the deposited data

How the results depend on the processing

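Of the values behind a comparison, 315 kept direction and side of the threshold, or a count within 1.5 times, over the alternatives, 49 moved, 7 reversed, 10 passed the threshold newly and 15 fell short of it. With 2 libraries a group, single libraries decide several calls, and the causes were not tested unless the alternative itself has fewer libraries, cells or genes. Low counts limit Npnt and Pdzk1ip1. No paired analysis was possible because the titles carry animal numbers that no groups share, and no label says that near numbers mark a litter or batch, so no block on near numbers was fitted. Only the comparison of Foxp3 classes is paired, by library.

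The number of genes called after DSS in mutant CD4 T cells was 546. It was 1611 with no filter, 150 with only the libraries compared, 259 without T cells holding other cells' marker UMIs and 283 after thinning. It ranged from 0 (without mutant untreated library 1) to 570 (without WT DSS library 2) when libraries were left out. In Foxp3-positive cells 169 genes were called. That became 489 with no filter, 82 without marker-holding cells, 39 thinned, 100 with at least 2 Foxp3 UMIs and 365 with off-list barcodes, and 21 (without mutant untreated library 1) to 301 (without mutant DSS library 1) by library. In Foxp3-negative cells 246 became 386 with DESeq2, 1333 with no filter, 53 with only the libraries compared, 80 without the gland-gene cluster, and 0 (without WT untreated library 1) to 249 by library. Between Foxp3 classes 3343 became 2004 with DESeq2, 1785 without marker-holding cells and 1092 thinned. For the difference of the DSS effects between classes 118 became 26 with DESeq2, 29 without marker-holding cells, 47 thinned, 32 with Treg-like clusters, and 39 (without mutant untreated library 1) to 220 (without mutant DSS library 1) by library. Mutant against WT gave 14 calls untreated with DESeq2, 147 with no filter and 0 to 11 by library. After DSS it gave 33 with no filter and 0 to 4 by library. The difference of the DSS effects between genotypes gave 1 with DESeq2 and 72 with no filter.

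For the 3 genes, log2 differences follow with adjusted p where a call changed, from edgeR unless DESeq2 is named. In mutant CD4 T cells the Laptm4b change ran from 1.97 to 2.38 by library, and the Npnt change was 1.40 (adjusted p = 4.95e-05) with no filter. In Foxp3-positive cells Laptm4b was 1.40 (0.186) without marker-holding cells, 1.58 (0.0950) with at least 2 Foxp3 UMIs, 0.59 (0.170) with off-list barcodes and 1.46 to 1.85 by library. DESeq2 gave no adjusted p for it. In Foxp3-negative cells Laptm4b was 1.11 (0.0324) with no filter. It was 1.70 (0.0291) in the T clusters that are not Treg-like, Foxp3-positive cells included. Npnt there was -0.36 without marker-holding cells and -0.36 (without mutant DSS library 1) to 1.62 by library. Between Foxp3 classes, as a description, Npnt was 1.19 without marker-holding cells, 0.11 thinned and 1.36 to 1.84 by library. Pdzk1ip1 was -0.15 with at least 2 Foxp3 UMIs and -0.16 (without WT untreated library 1) to 2.28 by library. The difference of DSS effects between classes was -0.38 for Laptm4b and -0.24 for Npnt with Treg-like clusters, and -0.69 (without mutant DSS library 2) to 1.27 for Npnt by library. In Foxp3-positive cells the mutant Npnt difference ran from 0.15 to 2.22 by library. Mutant against WT untreated, as a description, Laptm4b ran from -0.40 to 0.28, and the difference between genotypes from -0.47 to 0.21.

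In other classes, DESeq2 gave Laptm4b 0.82 (0.0540) in macrophage-like barcodes. In Treg-like barcodes, as a description, Laptm4b was 0.83 with DESeq2 and 0.67 to 1.04 by library, and Npnt was 1.36 with no filter and 0.82 to 1.62 by library. Mature dendritic-like Laptm4b was 0.08 (0.939) without barcodes holding a T cell or Foxp3 UMI. Npnt passed with no filter in fibroblast-like (1.03, 0.0124) and ILC3-like barcodes (0.73, 0.0203). By library, Npnt ran from 0.79 to 1.34 and 0.45 to 0.94 in these classes, with calls, in the same order, without mutant DSS library 1 (1.15, 0.0398) and mutant DSS library 2 (0.94, 0.0178). Fibroblast-like Laptm4b ran from 0.25 to 0.40 and was called without mutant DSS library 1 (0.0401). The Foxp3-positive part of the mutant rise was 73.5% for Laptm4b with T clusters as classes and 80.2 to 94.3% by library, and 41.8 to 121.4% for Npnt.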
